A study of Mus musculus with 15 samples.

Results

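The receptors for the incretins, glucagon and VIP form a small family in the islet transcriptome. The 8 genes examined were Glp1r, Gipr, Gcgr, Glp2r, Sctr, Vipr1, Vipr2 and Adcyap1r1, taken by gene symbol from 38283 genes in the expression table. RNA was sequenced from FACS-purified mouse islet cells, all on a C57BL/6 background. The 5 alpha and 4 beta cell samples were sorted from Glu-Venus mice, in which Venus is driven by the proglucagon promoter; beta cells were Venus-negative, with high scatter and autofluorescence. The 6 delta cell samples were sorted from Sst-CreXROSA26EYFP/EYFP mice, in which Cre is driven by the Sst promoter and turns on EYFP, so delta cells came from a different mouse line than the others. Each sample was a pool of islets from several mice, and the age and sex of the mice were not given in the sources used here.

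These receptors belong to class B1 of the GPCRs, which bind peptide hormones through a large extracellular domain. They couple mainly to Gs, which stimulates adenylyl cyclase to make cAMP, and in beta cells cAMP amplifies the insulin secretion that glucose sets off. The incretins glucagon-like peptide 1 and GIP are gut hormones that use this route, glucagon acts on the liver and within the islet, and VIP and PACAP are neuropeptides of the nerves that reach the islet.

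By summed markers, the samples matched their labels. The summed FPKM of 5 alpha cell markers was 194914 to 363651 in alpha cells and at most 3004 elsewhere, that of 7 beta cell markers was 119448 to 776959 in beta cells and at most 12767 elsewhere, and that of 3 delta cell markers was 102581 to 267799 in delta cells and at most 3345 elsewhere. Hormone genes made up most of these sums. Of the delta cell markers, Rbp4 overlapped between alpha cells (266 to 1094 FPKM) and delta cells (728 to 3317 FPKM), whereas Sst and Hhex did not. Ppy, the hormone gene of PP cells, was at 17728 to 41392 FPKM in alpha cells and 10857 to 48600 FPKM in delta cells, against 16.9 to 98.1 FPKM in beta cells. Of the other pancreatic cells, the summed markers reached 453 FPKM for acinar cells (a delta sample), 160 FPKM for duct cells and 3.79 FPKM for stellate cells (alpha samples), 2.79 FPKM for immune cells (a beta sample), 0.996 FPKM for endothelial cells and 1.10 FPKM for epsilon cells (delta samples). A second split of the samples ran through every cell type. Ribosomal protein genes (81 genes) had a summed FPKM of 65329 to 140065 in alpha samples 1, 2 and 3, beta sample 2 and delta samples 1 and 2 (6 samples), and 7871 to 38603 in the remaining 9. Between 14761 and 18559 genes had a value above 0 in a sample. In bulk samples such as these, fewer cells that express a gene and less RNA per cell cannot be told apart.

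Each member is annotated in GRCm38 as a single protein-coding gene. Glp1r lies at chr17:30901817-30940791, Gipr at chr7:19156061-19166127, Gcgr at chr11:120530699-120538986, Glp2r at chr11:67661502-67771153, Sctr at chr1:120006894-120063536, Vipr1 at chr9:121642716-121672954, Vipr2 at chr12:116077726-116146261 and Adcyap1r1 at chr6:55451978-55501451. The FPKM of a gene sums over all of its exons and transcripts, of which GENCODE lists from 2 (Glp1r, Glp2r, Sctr) to 8 (Adcyap1r1), so isoforms were not separated.

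The promoters of Glp1r, Gcgr and Vipr1 are shown because these receptors carried the differences between cell types: Glp1r and Gcgr had their highest level in beta cells, and Vipr1 in alpha cells. RefSeq promoter windows (GRCm38.p6) were matched for 6 of the 8 members. The sequences run 5′ to 3′ on the plus strand, on which all 3 genes lie, and end before the outermost annotated transcript start. Positions are chr17:30901617-30901816 for Glp1r, chr11:120530477-120530698 for Gcgr and chr9:121642466-121642715 for Vipr1. Capitals mark matches to the GC box (GGGCGG) or the CCAAT box (CCAAT) on either strand.
Glp1r: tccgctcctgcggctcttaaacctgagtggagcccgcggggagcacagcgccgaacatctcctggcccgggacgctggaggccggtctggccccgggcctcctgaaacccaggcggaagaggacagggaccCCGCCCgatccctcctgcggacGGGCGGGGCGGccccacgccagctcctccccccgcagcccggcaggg
Gcgr: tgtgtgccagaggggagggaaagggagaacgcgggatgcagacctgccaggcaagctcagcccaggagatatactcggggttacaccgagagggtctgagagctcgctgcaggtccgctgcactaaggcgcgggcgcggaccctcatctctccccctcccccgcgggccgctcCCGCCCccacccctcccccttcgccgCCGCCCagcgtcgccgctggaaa
Vipr1: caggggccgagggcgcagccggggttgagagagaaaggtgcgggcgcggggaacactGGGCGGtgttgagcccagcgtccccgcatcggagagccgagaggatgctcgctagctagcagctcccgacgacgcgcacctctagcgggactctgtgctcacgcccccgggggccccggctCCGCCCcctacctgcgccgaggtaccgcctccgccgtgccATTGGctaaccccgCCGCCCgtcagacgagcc
Over the 250 bases before the RefSeq start, the share of G and C was 73.2% for Glp1r, 70.4% for Gcgr and 72.8% for Vipr1. The median over 32851 mouse promoter windows of the same length was 52.4%, with an interquartile range of 45.2% to 61.2%. Glp1r held 3 GC boxes, at 119, 97 and 92 bases before the start, the latter pair sharing 1 base. Gcgr held 2, at 77 and 51 bases, and Vipr1 held 3, at 193, 72 and 18 bases, with a CCAAT box at 32 bases. These distances run to the RefSeq start, and the last 50 bases before it are not printed for Glp1r, nor the last 28 for Gcgr. The Vipr1 window is printed in full. A GC box was found in 32.7% of all windows and a CCAAT box in 33.8%. The TATA box (TATAAA, 12.4% of windows) and the cAMP response element (TGACGTCA, 1.55% of windows) were searched on both strands and had no match in these 3 windows. All 3 windows were thus rich in G and C and held the GC box, for the gene highest in alpha cells as for those highest in beta cells.

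Differences were tested with limma on log2(FPKM + 1) and p-values were adjusted by Benjamini-Hochberg. This covered 14405 genes, those with a mean over 1 FPKM in any of the cell types. Of the 8 members, 4 passed this filter (Glp1r, Gipr, Gcgr and Vipr1), and Gcgr passed it only through beta cells, where it was highest. In beta against alpha cells, Glp1r was called higher and Vipr1 lower, where 2.84% of all tested genes were called higher and 4.82% lower. Gcgr was called higher there too, but its call is not read against these shares, since the filter kept it for its level in beta cells. In delta against alpha cells, 1 was called higher (Glp1r) and 1 lower (Vipr1), against 5.33% and 1.48% of all tested genes. In delta against beta cells, 1 was called lower (Glp1r) and none higher, against 2.99% lower and 11.7% higher among all tested genes. For every member with a value above 0 in a comparison, an exact two-sided permutation test was also run on the samples of the 2 cell types, which gave 18 tests whose p-values are unadjusted. The smallest p these can give is 0.0159 between beta and alpha, 0.00433 between delta and alpha, and 0.00952 between delta and beta samples. Samples are pools, so all p-values measure the spread between pools.

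**Figure D1:**
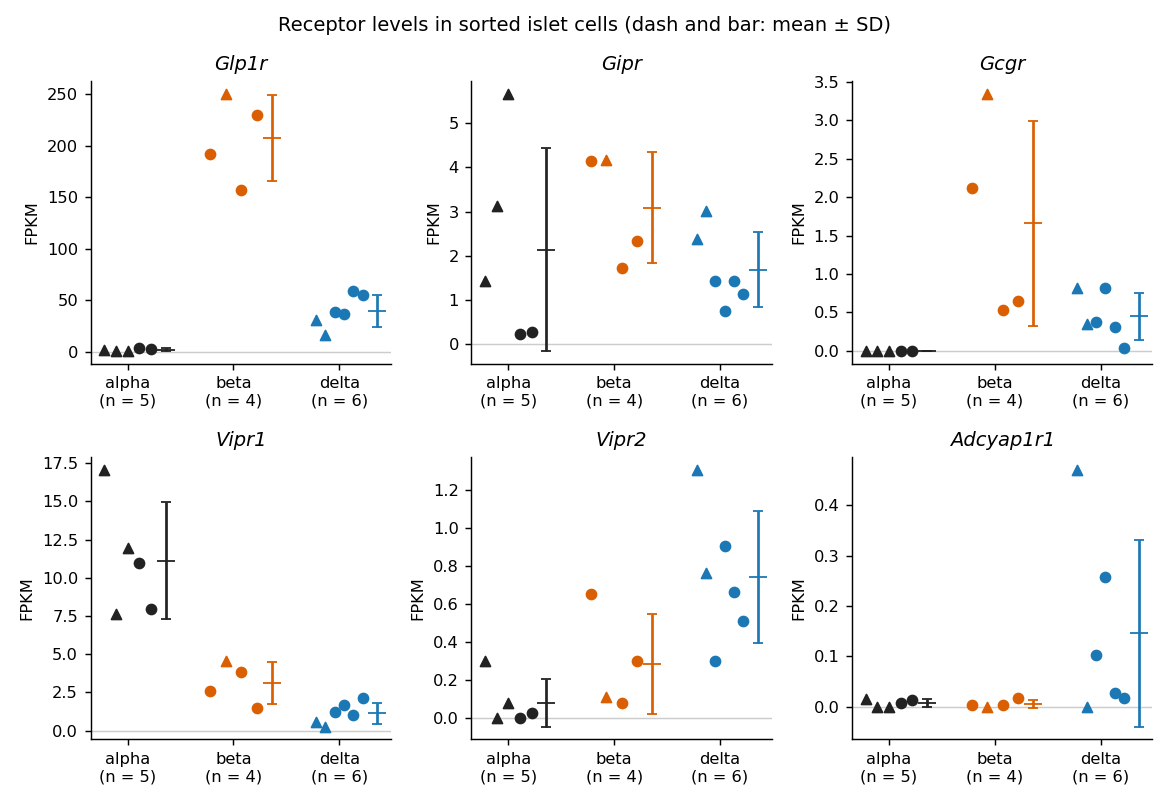
Levels of 6 receptor genes in FPKM (linear axes, which differ between panels) in each sample of alpha (black, n = 5), beta (orange, n = 4) and delta cells (blue, n = 6), with the mean and SD beside the points; triangles are samples with higher summed ribosomal protein FPKM and circles the remaining samples. Glp1r lay between 157 and 250 FPKM in beta cells and between 16.4 and 59.7 FPKM in delta cells, Gcgr was at 0 in every alpha sample, and Vipr1 was highest in alpha cells at 7.62 to 17.1 FPKM.

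The receptor for glucagon-like peptide 1, Glp1r (ENSMUSG00000024027), was the most abundant member in beta and delta cells, while Vipr1 was in alpha cells. Its level was highest in beta cells, intermediate in delta cells and low in alpha cells. In beta cells its level was 192, 250, 157 and 230 FPKM in samples 1 to 4. In delta cells it ranged from 16.4 FPKM (sample 2) to 59.7 FPKM (sample 5), with a median of 38.1 FPKM. In alpha cells it was 2.19, 1.45, 1.20, 4.09 and 2.84 FPKM in samples 1 to 5. The 3 cell types did not overlap at any point: the lowest beta sample was above the highest delta sample, and the lowest delta sample was above the highest alpha sample. It averaged 207 ± 41.4 FPKM (SD, n = 4) in beta cells, where 273 of the 38283 genes had a higher mean, 39.8 ± 15.9 FPKM (SD, n = 6) in delta cells, where 1308 genes did, and 2.36 ± 1.16 FPKM (SD, n = 5) in alpha cells, where 9690 did.

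Delta cells differed from both neighbours in this order. In delta cells Glp1r was higher than in alpha cells by 3.56 on the log2(FPKM + 1) scale (SE 0.361, adjusted p = 7.7e-06, limma), and the mean FPKM was 16.9 times that of alpha cells. It was lower than in beta cells, with a log2 difference of -2.44 (SE 0.385, adjusted p = 0.000469, limma), and the mean FPKM in beta cells was 5.21 times that of delta cells. Beta and alpha cells differed by 6.00 (SE 0.400, 95% confidence interval 5.15 to 6.85, adjusted p = 1.44e-07, limma). All 3 exact permutation tests gave the smallest p they allow (0.0159, 0.00433 and 0.00952), and all 3 differences were called under every alternative computed. Within the sets of samples, the mean in delta cells was 23.8 FPKM (n = 2) in the set with higher ribosomal protein FPKM and 47.8 FPKM (n = 4) in the other, and in each set delta cells lay between alpha and beta cells.

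Because beta cells hold much Glp1r RNA, its level elsewhere was set beside that of beta cell markers measured in the same samples. The mean in delta cells was 19.2% of the beta cell mean, and single delta samples ranged from 7.90% to 28.8%. The insulin genes Ins1 and Ins2 stood at 2.08% and 1.95% of their beta cell mean in delta cells, the glucose transporter gene Slc2a2 at 1.07%, the peptide gene Ucn3 at 1.23%, the glucose-6-phosphatase gene G6pc2 at 0.480% and the transcription factor gene Mafa at 4.08%. The transcription factor gene Nkx6-1 stood at 16.7%, with samples from 6.69% to 30.2%, a range that includes all the Glp1r values. The lowest Glp1r percentage in a delta sample was above the highest of Ins1 (2.94%), Ins2 (2.44%), Ucn3 (1.77%), Slc2a2 (1.67%) and G6pc2 (0.784%), whereas Mafa, with samples from 0% to 11.1%, overlapped with it as Nkx6-1 did. In alpha cells, Glp1r stood at 1.14% of the beta cell mean (0.580% to 1.97%), within the range of the same markers there, which ran from 0.779% (Slc2a2) to 7.21% (Nkx6-1). The part that beta cell RNA in the sorted samples plays in these levels was not tested.

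**Figure D2:**
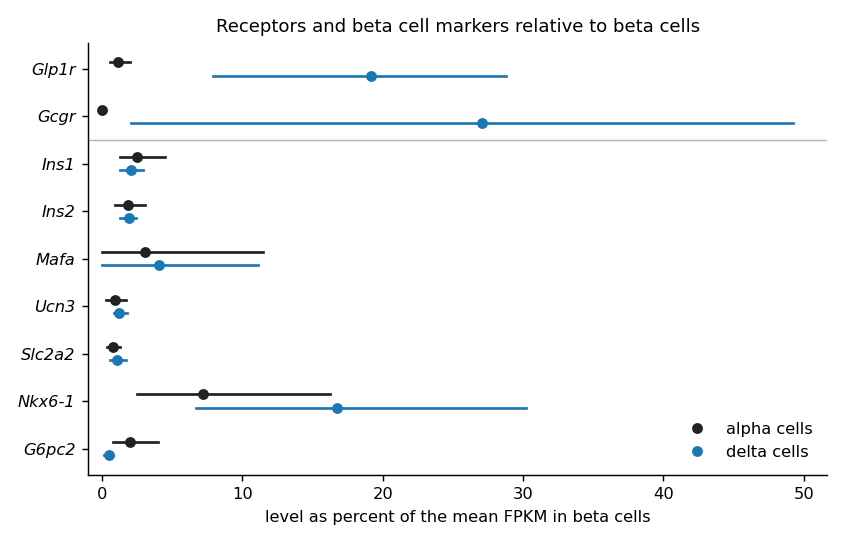
Level of Glp1r, Gcgr and 7 beta cell markers in alpha cells (black, n = 5) and delta cells (blue, n = 6) as a percentage of the mean FPKM in beta cells; points are means and lines run from the lowest to the highest sample. In delta cells Glp1r had a mean of 19.2%, above the means of Ins1 (2.08%), Ins2 (1.95%) and the other markers, of which Nkx6-1 (16.7%) came nearest.

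The receptor for the other incretin, Gipr (ENSMUSG00000030406), was low in all 3 cell types. In beta cells it was 4.14, 4.16, 1.72 and 2.34 FPKM in samples 1 to 4. In alpha cells it was 1.42, 3.12, 5.67, 0.220 and 0.274 FPKM in samples 1 to 5. In delta cells it ranged from 0.748 FPKM (sample 4) to 3.02 FPKM (sample 2), with a median of 1.42 FPKM. The alpha samples held both the highest and the lowest value of all 15 samples, so their range took in those of beta and delta cells. Beta and delta cells overlapped in part, with 4 of the 6 delta samples below every beta sample and 2 of the 4 beta samples above every delta sample. The means were in the order beta (3.09 ± 1.25 FPKM, SD, n = 4), alpha (2.14 ± 2.29 FPKM, SD, n = 5) and delta cells (1.69 ± 0.846 FPKM, SD, n = 6), and no neighbours in this order differed beyond their spread.

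None of the Gipr differences was called. The log2 difference was 0.64 for beta against alpha (95% confidence interval -0.35 to 1.63, adjusted p = 0.441, limma), 0.03 for delta against alpha (-0.86 to 0.93, adjusted p = 0.992) and -0.61 for delta against beta cells (-1.56 to 0.34, adjusted p = 0.409). The exact permutation tests gave p = 0.302, 0.970 and 0.0762. These intervals leave room for differences of more than 1 on the log2 scale between beta and each other cell type. The sign of the delta against alpha difference changed in 6 of 23 alternatives, among them both rescalings of the samples.

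The spread of Gipr in alpha cells followed the sets of samples. In the set with higher ribosomal protein FPKM, Gipr averaged 3.40 FPKM in alpha cells (n = 3), 2.70 FPKM in delta cells (n = 2) and 4.16 FPKM in the single beta sample. In the set with lower ribosomal protein FPKM it averaged 0.247 FPKM in alpha cells (n = 2), 1.18 FPKM in delta cells (n = 4) and 2.73 FPKM in beta cells (n = 3), and there the values of the 3 cell types did not overlap. With only these 9 samples, an alternative chosen after seeing the data, Gipr in beta cells exceeded that in alpha cells by 1.53 (adjusted p = 0.0277, limma). Over all alternatives, the adjusted p of this difference ran from 0.0277 to 0.856, and a fit with the set as a covariate gave 1.01 (adjusted p = 0.0856). The part of the sets in the level of Gipr was not tested.

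**Figure D3:**
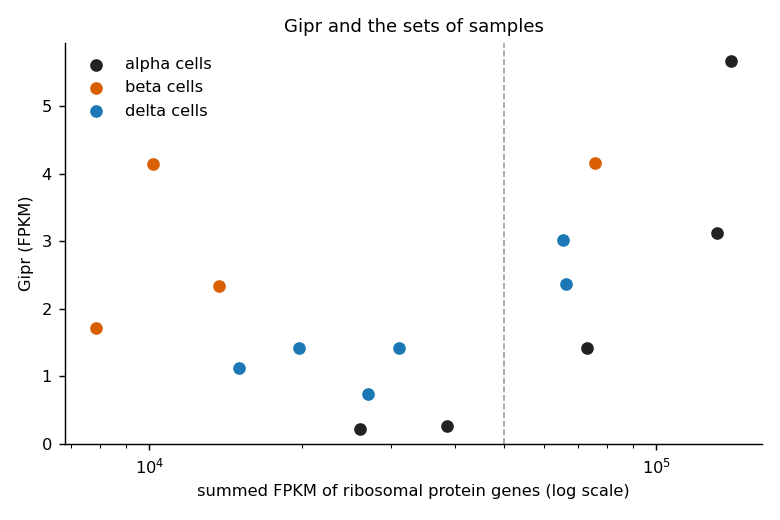
Gipr in FPKM (linear axis) against the summed FPKM of 81 ribosomal protein genes (log axis) in the 15 samples of alpha (black), beta (orange) and delta cells (blue); the dashed line at 50000 parts the sets. Alpha samples lie at 1.42 to 5.67 FPKM on the right of the line and at 0.220 and 0.274 FPKM on its left, while the beta samples lie at 1.72 to 4.16 FPKM on either side.

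Gcgr (ENSMUSG00000025127), the glucagon receptor, was low in beta cells, lower in delta cells and listed at 0 in every alpha sample. In beta cells it was 2.12, 3.35, 0.529 and 0.648 FPKM in samples 1 to 4. In delta cells it ranged from 0.0347 FPKM (sample 6) to 0.817 FPKM (sample 1), with a median of 0.362 FPKM. All beta and delta samples had a value above 0, and the beta and delta ranges overlapped. The means were 1.66 ± 1.34 FPKM (SD, n = 4) in beta cells and 0.450 ± 0.309 FPKM (SD, n = 6) in delta cells. In the 2 alpha samples whose depth could be estimated from the steps of single reads, a count of 3 reads on the longest transcript (2502 nt) would have stood at 0.172 FPKM (sample 2, 7.6 M reads) and 0.0497 FPKM (sample 5, 26.2 M reads), and this floor covers counting error only. The lowest delta sample was below both floors, so it cannot be placed above these alpha samples. Of 12 housekeeping genes, 0 were listed at 0 in any sample, and their lowest value was 0.159 FPKM.

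Beta cells exceeded alpha cells in Gcgr by 1.27 on the log2(FPKM + 1) scale (SE 0.330, adjusted p = 0.0275, limma), and the exact permutation test gave p = 0.0159. The call was lost when only alpha and beta samples were fitted (adjusted p = 0.142), in the set with lower ribosomal protein FPKM (0.168), and without alpha sample 1 (0.0508), alpha sample 2 (0.0543), beta sample 1 (0.0883) or beta sample 2 (0.0548). Pairing alpha and beta samples 1 to 4 by number also ended the call (adjusted p = 0.229, limma). Without the filter, which Gcgr passed through beta cells alone, the adjusted p was 0.0425. A pseudocount of 0.1 in place of 1 gave a difference of 3.78 (adjusted p = 0.00322), as alpha cells are at 0. In delta against alpha cells the difference was 0.51 (95% confidence interval -0.12 to 1.14, adjusted p = 0.444, limma), while the exact permutation test, which takes the listed 0 values as they are, gave p = 0.00433. In delta against beta cells it was -0.77 (-1.44 to -0.09, adjusted p = 0.122, exact permutation p = 0.0571), and this difference was called under median-ratio size factors (-0.93, adjusted p = 0.0250) and quantile normalization (-1.12, adjusted p = 0.00562). The delta cell mean was 27.1% of the beta cell mean. Beta sample 2, the only beta sample in the set with higher ribosomal protein FPKM, had the most Gcgr, and the mean of the other 3 was 1.10 FPKM.

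An antisense gene, Gm11789, lies within the span of Gcgr without sharing exon bases with it. Gm11789 was at 12.1, 23.8, 5.00 and 10.7 FPKM in beta samples 1 to 4, at 1.73 FPKM in alpha sample 3 and at 0 in the other alpha samples, and from 0.346 to 6.53 FPKM in delta cells. Beta sample 2 was the highest sample for both genes and delta sample 1 was the highest delta sample for both. Whether the library kit kept the strand of the RNA is not stated, so reads from unspliced RNA of either gene cannot be told apart, and their part in the values of Gcgr was not tested.

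Glp2r (ENSMUSG00000049928), the receptor for glucagon-like peptide 2, and Sctr (ENSMUSG00000026387), the secretin receptor, were listed at 0 in all 15 samples. In the 6 samples whose depth could be estimated (7.6 M to 30.2 M reads), 3 reads would have stood at 0.0212 to 0.0845 FPKM for Glp2r and at 0.0547 to 0.218 FPKM for Sctr. RNA of these receptors was therefore not detectable at this depth in those 6 samples. No such limit can be given for the remaining 9.

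Vipr1 (ENSMUSG00000032528), which encodes the VIP and PACAP receptor VPAC1, was the member with its highest level in alpha cells. In alpha cells it was 17.1, 7.62, 11.9, 10.9 and 7.93 FPKM in samples 1 to 5. In beta cells it was 2.61, 4.55, 3.82 and 1.48 FPKM in samples 1 to 4. In delta cells it ranged from 0.263 FPKM (sample 2) to 2.12 FPKM (sample 6), with a median of 1.13 FPKM. All alpha samples were above all samples of the other cell types, whereas the lowest beta sample lay within the delta range. The means were 11.1 ± 3.83 FPKM (SD, n = 5) in alpha cells, 3.11 ± 1.35 FPKM (SD, n = 4) in beta cells and 1.14 ± 0.688 FPKM (SD, n = 6) in delta cells, so the alpha cell mean was 3.57 times that of beta cells and 9.74 times that of delta cells.

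In delta cells Vipr1 was lower than in alpha cells, with a log2 difference of -2.51 (adjusted p = 6.83e-05, limma; exact permutation p = 0.00433) and was called under every alternative computed. Beta cells were below alpha cells too, at -1.57 (SE 0.351, adjusted p = 0.0116, limma; exact permutation p = 0.0159), a call that was lost when only alpha and beta samples were fitted (adjusted p = 0.0779) and without beta sample 4 (0.0506). Pairing alpha and beta samples 1 to 4 by number also ended this call (adjusted p = 0.148, limma). In delta against beta cells the difference was -0.94 (adjusted p = 0.0735, limma; exact permutation p = 0.0286), and it was called under median-ratio size factors (-1.21, adjusted p = 0.0471) and quantile normalization (-1.41, adjusted p = 0.0135). Beta and delta cells, the neighbours at the low end of the order, were thus called different by limma only under a rescaling of the samples. Vipr1 averaged 0.405 FPKM in the 2 delta samples of the set with higher ribosomal protein FPKM and 1.51 FPKM in the other 4, and in each set the order of the means was alpha, beta and delta cells.

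The level of Vipr1 outside alpha cells was also set beside alpha cell markers. In beta cells Vipr1 stood at 28.0% of its alpha cell mean, with samples from 13.3% to 41.0%. The glucagon gene Gcg stood at 0.233% there, the transthyretin gene Ttr at 3.15%, and the transcription factor genes Irx1 and Irx2 at 0.0336% and 1.75%. In delta cells Vipr1 stood at 10.3% (2.37% to 19.1%), beside 0.189% for Gcg, 0.469% for Ttr, 1.95% for Irx1 and 9.57% for Irx2. The lowest Vipr1 percentage in a beta sample was above the highest of these 4 markers there, which was 7.58% (Ttr). In delta cells Irx1 (up to 7.04%) and Irx2 (up to 17.5%) overlapped with Vipr1, and Gcg (up to 0.281%) and Ttr (up to 0.796%) did not. The part that alpha cell RNA in the sorted samples plays in these levels was not tested.

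**Figure D4:**
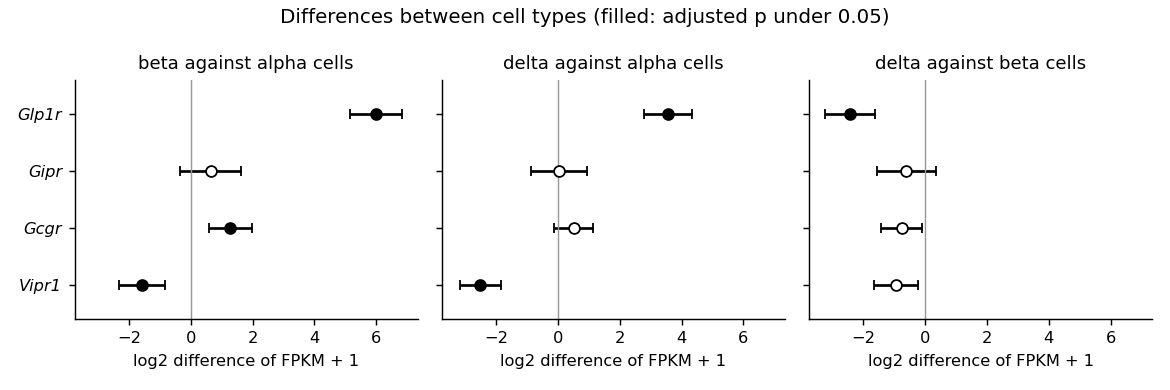
Log2 differences of FPKM + 1 for the 4 receptor genes above the filter in the 3 comparisons of cell types, with 95% confidence intervals; filled points have an adjusted p under 0.05 (limma, all 15 samples). Glp1r was called in all 3 comparisons (6.00, 3.56 and -2.44), Vipr1 in 2 (-1.57 and -2.51), Gcgr in 1 (1.27) and Gipr in none. The filter kept Gcgr only through beta cells, where it was highest.

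Vipr2 (ENSMUSG00000011171), which encodes VPAC2, the second receptor for VIP and PACAP, had the reverse order of levels and lay below the filter. In delta cells it ranged from 0.296 FPKM (sample 3) to 1.31 FPKM (sample 1), with a median of 0.712 FPKM. In beta cells it was 0.649, 0.107, 0.0790 and 0.297 FPKM in samples 1 to 4. In alpha cells it was 0.297, 0, 0.0754, 0 and 0.0239 FPKM in samples 1 to 5. The delta samples were above the others with the exceptions of beta samples 1 and 4 and alpha sample 1, which lay within or at the edge of the delta range. It averaged 0.740 ± 0.347 FPKM (SD, n = 6) in delta cells, 0.283 ± 0.263 FPKM (SD, n = 4) in beta cells and 0.0793 ± 0.126 FPKM (SD, n = 5) in alpha cells. The exact permutation tests gave p = 0.00866 for delta against alpha cells, 0.0476 for delta against beta cells and 0.127 for beta against alpha cells. In a fit of all genes without the filter, the delta against alpha difference was 0.67 (adjusted p = 0.0474, limma) and the other differences were not called.

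Adcyap1r1 (ENSMUSG00000029778), which encodes the PACAP-selective receptor PAC1, was close to 0 in alpha and beta cells. In alpha cells it was 0.0155, 0, 0, 0.00732 and 0.0141 FPKM in samples 1 to 5. In beta cells it was 0.00330, 0, 0.00302 and 0.0173 FPKM in samples 1 to 4. In delta cells it ranged from 0 (sample 2) to 0.471 FPKM (sample 1), with a median of 0.0648 FPKM, and samples 3 and 4 were at 0.102 and 0.258 FPKM. The delta values spread over the whole range of the gene, and all 3 cell types overlapped. The exact permutation tests gave p = 0.0433 for delta against alpha cells, 0.0857 for delta against beta cells and 0.810 for beta against alpha cells, and without the filter no difference was called (adjusted p = 0.615, 0.464 and 1, limma).

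The 3 delta samples with the most Adcyap1r1 were also the only samples of the 15 with a value above 0 for S100b, a glial marker (0.140, 0.0520 and 0.0305 FPKM in delta samples 1, 3 and 4). Sox10, another glial marker, was at 0.0134 FPKM in delta sample 3 and at 0 in the other 14 samples. The part of glial RNA in the level of Adcyap1r1 was not tested.

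Of the peptides that bind these receptors, only proglucagon was abundant in the sorted cells. Gcg, which encodes glucagon and both glucagon-like peptides, averaged 273077 ± 72015 FPKM (SD, n = 5) in alpha cells, 636 ± 790 FPKM (SD, n = 4) in beta cells and 515 ± 210 FPKM (SD, n = 6) in delta cells. The beta cell mean rested on beta sample 2 at 1817 FPKM, the other beta samples being at 166 to 299 FPKM, while delta samples ranged from 236 to 767 FPKM. The log2 difference of 0.28 for delta against beta cells was not called (adjusted p = 0.803, limma). Gip and the PACAP gene Adcyap1 were listed at 0 in all 15 samples, as was Ghrh, the gene of the related growth hormone-releasing hormone, whose own receptor is not among the 8. Vip had a value above 0 only in delta samples 3 and 4, at 0.0252 and 0.245 FPKM. The secretin gene Sct was at 0.273, 0.721 and 0.176 FPKM in alpha samples 1, 3 and 5, at 0.696, 0.431 and 0.131 FPKM in delta samples 3, 4 and 5, and at 0 elsewhere.

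Of 4 enzymes that process or degrade these peptides, 3 were tested. Pcsk1, the prohormone convertase that releases glucagon-like peptide 1 from proglucagon, had the same order as Glp1r. It averaged 138 ± 92.9 FPKM (SD, n = 4) in beta cells, 16.3 ± 3.70 FPKM (SD, n = 6) in delta cells and 1.05 ± 0.780 FPKM (SD, n = 5) in alpha cells, and its log2 differences (5.92, 3.12 and -2.79) were called in each comparison and under every alternative computed. Pcsk2, the convertase that releases glucagon, was at means of 215 to 368 FPKM in the 3 cell types and was not called. Dpp4, which inactivates the incretins, was at means of 15.5 to 35.6 FPKM and was not called either.

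Receptor activity modifying proteins are single-pass partners of several class B1 receptors. Ramp1 averaged 23.7 ± 19.4 FPKM (SD, n = 6) in delta cells, 3.98 ± 3.41 FPKM (SD, n = 5) in alpha cells and 0.472 ± 0.562 FPKM (SD, n = 4) in beta cells. Delta cells exceeded beta cells by 3.82 (adjusted p = 0.000352, limma) and alpha cells by 2.31 (adjusted p = 0.0144), the latter lost without the filter (adjusted p = 0.0580). Ramp2 was not called, and Ramp3 was below the filter. Of 7 other class B1 receptors, only the urocortin receptor gene Crhr2 passed the filter, and only through delta cells, where it was highest. It averaged 2.40 ± 1.32 FPKM (SD, n = 6) in delta cells, with a log2 difference of 1.66 from alpha cells and 1.67 from beta cells, given as a description because of that filter.

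Downstream of the receptors, 15 of 19 genes for Gs proteins, adenylyl cyclases, protein kinase A and Epac were tested. In delta against beta cells 5 were higher and 1 was lower, where 11.7% and 2.99% of all tested genes were, and the median log2 difference was 0.81 where that of all tested genes was 0.30. In delta against alpha cells 3 were higher and none lower, against 5.33% and 1.48% of all tested genes (median 0.54, all genes 0.13). In beta against alpha cells 1 was higher and 1 lower, against 2.84% and 4.82% (median -0.07, all genes -0.13). Adcy8, Adcy2 and Gnal passed the filter only through delta cells, and they are all 3 of the higher genes against alpha cells and 2 of the 5 against beta cells, so these counts are a description only. Gnas, the gene of the Gs alpha subunit, averaged 1310 ± 424 FPKM (SD, n = 5) in alpha cells, 1142 ± 148 FPKM (SD, n = 6) in delta cells and 228 ± 82.7 FPKM (SD, n = 4) in beta cells. It was lower in beta cells, by -2.52 against alpha cells (adjusted p = 0.000589, limma), while delta cells were 2.38 above beta cells (adjusted p = 0.000444). With alpha and beta samples 1 to 4 paired by number, the beta against alpha call was lost (adjusted p = 0.111, limma).

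The calls among the adenylyl cyclase genes were for Adcy2, Adcy6 and Adcy8, with a higher level in delta cells, as were 78.3% of all calls against alpha cells and 79.6% of those against beta cells (67.5% and 51.0% under median-ratio size factors). Adcy8 averaged 2.52 ± 0.682 FPKM (SD, n = 6) in delta cells and had means of 0.0223 FPKM in alpha and 0.00638 FPKM in beta cells, a log2 difference of 1.76 and 1.78. Adcy2 averaged 2.05 ± 0.385 FPKM (SD, n = 6) in delta cells with a log2 difference of 1.52 from alpha cells. Gnal, a Gs-type alpha subunit, in delta cells stood 1.13 higher on the log2 scale than in alpha cells. These values of Adcy8, Adcy2 and Gnal are a description, since the filter kept the genes for their level in delta cells. In delta against beta cells, Rapgef3, the gene of Epac1, was higher by 1.95 (adjusted p = 0.0200, limma, and 0.0795 at most over the alternatives, of which 3 of 23 lost the call, among them that without beta sample 4) and Adcy6 by 1.65 (adjusted p = 0.0116). The lower gene in that comparison was Rapgef4, which encodes Epac2, a cAMP sensor of insulin secretion. It averaged 77.0 ± 41.3 FPKM (SD, n = 4) in beta cells and 24.6 ± 3.51 FPKM (SD, n = 6) in delta cells, a difference of -1.47 (adjusted p = 0.0260) that was not called without beta sample 4, without delta sample 1 or in the set with lower ribosomal protein FPKM. The higher gene in beta against alpha cells, the protein kinase A subunit gene Prkar2b (1.82, adjusted p = 0.0357), lost its call in 12 of 25 alternatives.

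All 7 genes for arrestins and GPCR kinases, which end receptor signalling, passed the filter. Their median log2 difference was 0.30 for beta against alpha, 0.30 for delta against alpha and -0.10 for delta against beta cells, beside -0.13, 0.13 and 0.30 for all tested genes. The single call among them, in a comparison where 2.99% of all tested genes were called lower, was Grk5, at 1.12 ± 0.410 FPKM (SD, n = 6) in delta cells and 7.70 ± 5.08 FPKM (SD, n = 4) in beta cells, a difference of -1.87 (adjusted p = 0.00586, limma).

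The genes most like each tested receptor were found by Pearson's r of log2(FPKM + 1) over the 15 samples, a description in which samples of a cell type share that type. For Glp1r these were Itpkb (r = 0.97), Pcsk1 (0.96) and Sh3pxd2a (0.95), all with means highest in beta cells and lowest in alpha cells. For Gcgr they were Fam151a (0.93), Aqp4 (0.92) and Ppp1r1a (0.92), which had the same order. For Vipr1, Ttr (0.89) and Slco4a1 (0.88) are given, both with means highest in alpha cells. For Gipr they were Ublcp1 (0.91), Prkag2 (0.89) and Kbtbd8 (0.85), whose means, like those of Gipr, were highest in beta cells and lowest in delta cells.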

How the data were processed

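RNA of 15 sorted samples was amplified (NuGEN), fragmented to about 200 bp and read from a single end (50 nt). The authors mapped reads to GRCm38 with TopHat (2.0.11 in the methods, 2.0.8 in the submitters' processing notes) and deposited FPKM from Cufflinks 2.2.1, that is, fragments scaled to transcript length and to the mapped reads of the sample. The annotation release is not given in the sources used here. The study's own test used raw read counts; these were not used here, so no count test was run.

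The deposited FPKM were tested with limma 3.58.1 (R 4.3.3; lmFit, eBayes with a trend, all 15 samples, 14405 genes with a mean above 1 FPKM in at least 1 cell type, pseudocount 1). A call is an adjusted p under 0.05, Benjamini-Hochberg. Log2 differences understate changes of low genes. The fit was tested on simulated data. Exact tests used SciPy 1.17.1, other steps Python 3.11.15. Depth was read from the steps of low values of 5024 genes with a single transcript, resolved in 6 samples; elsewhere it is unknown. Coordinates are from GENCODE M21. Ribosomal protein sets were parted at 50000 FPKM.

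Members, gene lists and alternatives were chosen with earlier results of these data known. All members and ligands are named, and of the other lists the genes with the largest log2 differences among those called, at most 4 per list and comparison. Markers named beside Glp1r, Vipr1 and Adcyap1r1 come from cell type lists. A few genes that these rules select are not reported here. Alternatives were other filters, pseudocounts, scalings, sample subsets, a replicate block and leaving out each sample.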

Additional observations from a re-analysis of the deposited data

Results flagged for a closer look

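Vipr2 in alpha sample 1, at 0.297 FPKM, stood far from the other alpha samples (0 to 0.0754 FPKM): its gap to the next sample was 0.721 of the range of the group. Of 17 groups of samples examined for the 8 receptors, this was the 1 group with such a sample, and chance gives about 1 in 20 groups, or 0.85 here.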

How the results depend on the processing

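In beta against alpha cells, 3 receptors were called, but 1 (Glp1r) when only the 2 cell types were fitted and 1 (Glp1r) in the replicate block of alpha and beta samples 1 to 4 paired by number (adjusted p 0.229 for Gcgr, 0.148 for Vipr1; Gnas also lost its call, at 0.111). Gcgr had passed the filter only through beta cells. In delta against beta cells, 1 was called, but 3 (Glp1r, Gcgr, Vipr1) under median-ratio size factors and 3 under quantile normalization. The cause was not tested. Over all genes, the median log2 difference shifted under these rescalings by 0.13, -0.13 and -0.29 and by 0.12, -0.16 and -0.30 in beta against alpha, delta against alpha and delta against beta cells, and the share of calls that were higher from 37.0%, 78.3% and 79.6% to 53.0%, 67.5% and 51.0% and to 48.5%, 61.0% and 52.1%. Calls over all genes in beta against alpha cells went from 1104 to 2088 with either. Same-numbered samples had a correlation over 0.1 in 5 of 13 pairs (mean 0.0761), and most of these pairs held a delta sample, from the other mouse line. Between alpha and beta samples 1 to 4 the correlations were -0.0395, 0.271, -0.152 and 0.0731. Samples of different number were not compared, and alpha and beta cells came from the same mouse line, so this cannot exclude pairing. The main fit did not pair samples. Of the receptors' single differences, 270 results kept their side of the threshold, 5 gained a call and 10 lost one; the sign changed only for Gipr in delta against alpha cells (6 of 23 alternatives, none called). The filter at 5 FPKM left out Gipr and Gcgr. Depth limits Glp2r, Sctr and the 0 values.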
